A study of Arabidopsis thaliana with 5 samples.

Results

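AT2G26690 and AT3G21670 are 2 genes of the nitrate transporter 1/peptide transporter (NPF) family of Arabidopsis thaliana, listed in the RefSeq gene table as NPF6.2 and NPF6.4. They were taken as the probe sets annotated to these loci, which gave 2 of the 3592 genes named by a probe set and 2 of the 8247 probe sets tested. Both were chosen for values measured on these arrays. AT2G26690 had the lowest difference among named genes at 30 min of hypoxia. AT3G21670 read below both air arrays at every time of hypoxia, as did 8.16% of all probe sets. Their differences between hypoxia and air are therefore given as a description, with no test. The study asks how gene expression in seedlings under low oxygen differs from that in seedlings kept in air.

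The hypoxic group was 14-day-old whole seedlings of ecotype Col-0 held in plastic bags flushed with 0.2% oxygen and 99.8% nitrogen for 30, 60 or 240 min. The air group was seedlings of the same ecotype and age sampled at 0 and 240 min. All had grown on vertical agar plates with an inorganic medium, at 22 °C and 16 h light. There is a single array for each treatment and time, 3 of hypoxia and 2 of air. The labels give neither the nitrate content of the medium nor the lighting during the treatment. The design text calls the samples independent, and nothing says whether they came from separate plates. Because the times serve as replicates, the spread within the hypoxic group holds change with time as well as variation between samples.

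NPF proteins are membrane transporters of the major facilitator superfamily, and many couple the movement of nitrate, peptides, hormones or glucosinolates to that of protons. The best known is NRT1.1 (NPF6.3), which takes up nitrate in roots and also acts as a nitrate sensor. NPF6.2, also called NRT1.4, is a low-affinity nitrate transporter expressed mainly in leaf petioles, where it takes part in nitrate storage. NPF6.4, also called NRT1.3, belongs to the same subfamily. Nitrate matters in low oxygen because its reduction consumes reducing power, and because nitrite formed from it can be turned into nitric oxide.

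For genes of the core low-oxygen response, only the 60 min array of the 3 hypoxic arrays read above its air array. Over 5 measured genes of that response, the median difference from 0 min air was −0.25 at 30 min, with 5 of 5 below 0 and 2 lower by 1 or more, and 1.18 at 60 min on the log2 scale. At 240 min it was −1.48 against air of the same time, and 240 min air itself stood 1.16 above 0 min air. The 240 min hypoxic array also had the highest excess of the 3′ over the 5′ GAPDH control probe set, at 1.97, against −0.23 to 0.69 on the other arrays. Whether the 240 min hypoxia and air arrays were exchanged cannot be settled from these values. The hypoxia minus air differences and counts are therefore also given without these arrays, while the order of levels and the nearest patterns use all 5.

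Both transporter genes read lower on every hypoxic array than on either air array. AT2G26690, the petiole nitrate transporter gene, read 5.09, 6.76 and 6.79 at 30, 60 and 240 min of hypoxia, against 7.60 and 7.40 in air at 0 and 240 min (log2 RMA values). The 30 min array stood far below the others, the 60 and 240 min arrays were nearly equal, and the groups did not overlap. AT3G21670 read 5.90, 6.52 and 6.21 at 30, 60 and 240 min of hypoxia, against 7.09 and 6.77 in air at 0 and 240 min. Here too the 30 min array was the lowest and the groups did not overlap. For both genes this holds under the labels as given, and with the 240 min arrays exchanged the groups would overlap. These seedlings were measured whole, so fewer cells with the transcript and less transcript per cell cannot be told apart.

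**Figure D1:**
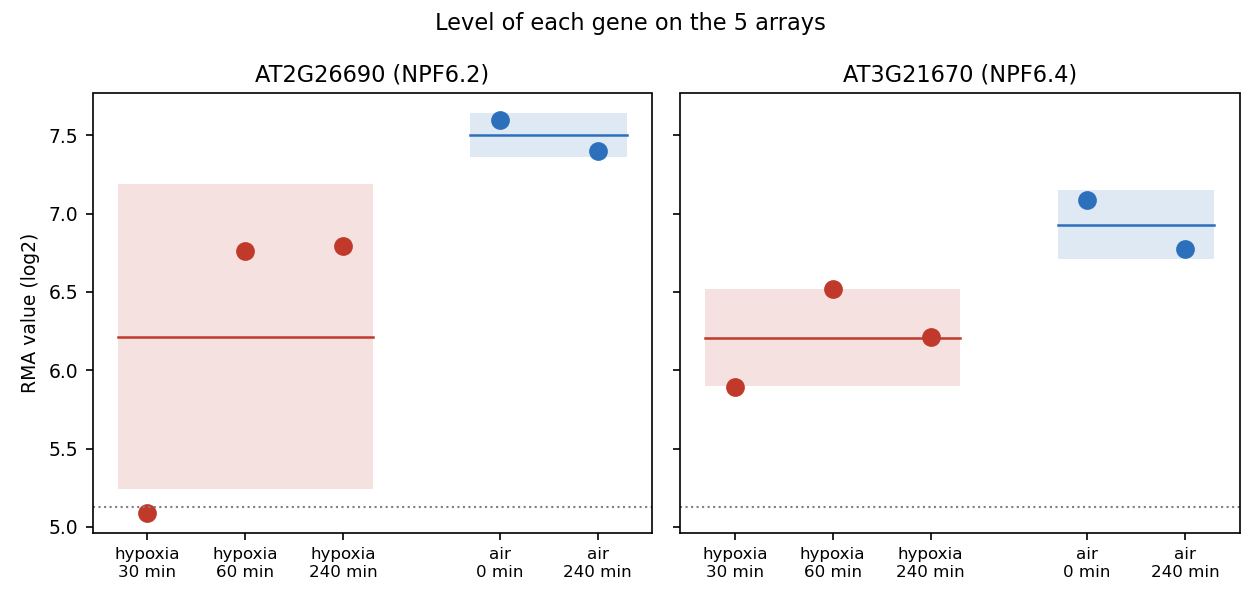
RMA values (log2, vertical axis) of AT2G26690 (left) and AT3G21670 (right), with 1 point for each array, hypoxia in red and air in blue. Lines and bands are the group mean ± SD (n = 3 hypoxia, n = 2 air), and the dotted line is the mean of the array medians. The 30 min hypoxic array is the lowest for both genes, and AT2G26690 lies at the array median there.

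The group means were 6.21 ± 0.97 in hypoxia and 7.50 ± 0.14 in air for AT2G26690 (SD, n = 3 and 2). The difference was −1.28 ± 0.61 (log2, SE by limma), and without the 30 min array it was −0.72 ± 0.11. For AT3G21670 the means were 6.21 ± 0.31 in hypoxia and 6.93 ± 0.22 in air, and the difference was −0.72 ± 0.23. Without the 30 min array it was −0.56 ± 0.18.

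In the limma test of hypoxia against air, 0 of 8247 probe sets passed an adjusted p of 0.05 in either direction, which is 0.0% of those tested and includes neither of the 2 genes. At an unadjusted p under 0.05 there were 161, or 1.95%, and 219 without both 240 min arrays. Every hypoxic array lay below both air arrays for 8.16% of all probe sets, and above both for 5.2%. Nothing is read from the position of AT3G21670, whose choice required it. AT2G26690 was singled out on the 30 and 0 min arrays, and no test was made on the remaining 2 hypoxic arrays and 1 air array. Without both 240 min arrays the difference was −1.67 for AT2G26690 and −0.88 for AT3G21670, and 29.0% of all probe sets, both genes included, then lay below air. That setting leaves 1 air array, so it holds no spread within air and its differences are no firmer.

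At 30 min both genes were lower than 0 min air by more than 2-fold. The difference was −2.51 for AT2G26690, a level 0.176 times that in 0 min air, and −1.19 for AT3G21670, or 0.438 times. Of 4555 probe sets at or above the median level on either array, 5.31% were lower by 1 or more. In the same comparison, 2 probe sets, both without a gene name here, had a lower difference than AT2G26690, and 154 had a lower one than AT3G21670. At 30 min AT2G26690 read 0.04 below the median of its array, in the range where RMA compresses differences. The difference given also rests on 1 array on each side, and the gene was chosen on it. Its size is therefore uncertain in either direction.

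The 30 min array also differed in genes that mark shoot and root. Of 6 measured shoot photosynthesis genes, 6 were below 0 min air and 5 were lower by 1 or more, with a median of −1.27. They include SBPASE, a Calvin cycle enzyme gene, at −1.70, PRK, another gene of that cycle, at −1.68, and PSAN, of photosystem I, at −1.45. Their summed level was 14.3, 15.4 and 15.6 (log2) at 30, 60 and 240 min of hypoxia, against 15.4 and 15.4 in air at 0 and 240 min. Both class III peroxidase genes set as root markers were higher at 30 min, AT5G17820 by 2.93 and AT5G66390 by 0.63. Their summed level was 9.84, 6.87 and 7.67 at the same times of hypoxia, against 7.14 and 7.22 in air. Of the 22 root markers listed, only these 2 had a named probe set, and no marker that defines a root cell type was among them. Both probe sets have names ending _s_at and can match more than one transcript. AT5G66390 read between 4.67 and 5.57 over the arrays, near the array median. The part of these markers in the low 30 min values of the transporter genes was not tested.

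At 60 min the difference from 0 min air was −0.83 for AT2G26690 and −0.57 for AT3G21670. In this comparison 2.26% of 4477 probe sets were lower by 1 or more, and neither gene was among them. The shoot photosynthesis genes, with 4 of 6 above 0 min air and a median of 0.25, were not low as a group on this array, though PSAN was at −1.43. The root peroxidase genes were at −0.44 and 0.33. Against 240 min air, AT3G21670 was lower at 60 min by 0.26 only, which is less than the 0.31 between the air arrays.

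At 240 min, the only time of hypoxia with a time-matched air array, the differences were −0.61 for AT2G26690 and −0.56 for AT3G21670 under the labels as given, and would turn to 0.61 and 0.56 were these 2 arrays exchanged. The share of probe sets lower by 1 or more was 3.52% of 4690, and neither gene was among them. The shoot photosynthesis genes had a median of −0.12, with 3 above and 3 below air. In levels, AT2G26690 was higher at 60 min than at 30 min of hypoxia by 1.67, and at 240 min than at 60 min by 0.03. AT3G21670 was higher at 60 min than at 30 min by 0.62, and at 240 min differed from 60 min by −0.30.

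In air, both genes read lower at 240 min than at 0 min, AT2G26690 at −0.20 and AT3G21670 at −0.31. These gaps are the only comparison of arrays within air. They hold 240 min of change in air as well as variation between samples, so they are not a replicate spread. Among the 490 probe sets within 0.5 of the air level of AT2G26690, the difference between the air arrays had an SD of 0.30, and among the 649 around AT3G21670 it had an SD of 0.26. The air gap of AT2G26690 lay within that SD, and that of AT3G21670 was slightly above it. With the extreme tails left out, these air differences ran from −0.66 to 0.59 around AT2G26690 and from −0.61 to 0.49 around AT3G21670. The 240 min differences of both genes, −0.61 and −0.56, lay within those ranges, as did the −0.57 of AT3G21670 at 60 min. Their other differences between hypoxia and air lay below, which is not read as support because the genes were chosen on these arrays.

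From high to low, the levels of AT2G26690 ran in the order 0 min air, 240 min air, and 240, 60 and 30 min of hypoxia. The step from 240 min air to 240 min of hypoxia, 0.61, and that from 60 to 30 min of hypoxia, 1.67, exceeded the gap between its air arrays. The 0.03 between 240 and 60 min of hypoxia did not. A drop of 0.61 still lay within the range between the air arrays for probe sets of like brightness. The 1.67 uses the 30 min array on which the gene was chosen. For AT3G21670 the order was 0 min air, 240 min air, and 60, 240 and 30 min of hypoxia. Its 4 steps were 0.31, 0.26, 0.30 and 0.32, none clearly larger than the gap between its air arrays, which is the first of them. Neighbours in that order were thus not told apart. The difference of AT2G26690 minus that of AT3G21670 was −1.32 at 30 min, −0.26 at 60 min and −0.05 at 240 min.

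Of the 53 NPF genes listed, 7 had a named probe set. The 5 besides the 2 genes above had a median hypoxia minus air difference of −0.06, against −0.005 over all probe sets, and 4 of 5 were below 0. Without both 240 min arrays their median was −0.03. In the limma test 0 of 5 had an adjusted p under 0.05, as had 0 of all 8247 probe sets. At an unadjusted p under 0.05 it was 0 of 5, against 1.95% of all probe sets. By single arrays, 0 of 5 differed by 1 or more in any comparison. Among probe sets at or above the median level, 5.31%, 2.26% and 3.52% were lower by 1 or more at 30, 60 and 240 min. At such shares, counts of 0 among 5 genes are not read as a result about them.

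AT2G40460 (NPF5.1) read 6.19, 6.19 and 6.14 at 30, 60 and 240 min of hypoxia, against 6.27 and 6.68 in air at 0 and 240 min. Under the labels as given every hypoxic array was below both air arrays, as for 8.16% of all probe sets. With the 240 min arrays exchanged its groups would overlap. Its single-array difference was −0.08 at 30 min and −0.08 at 60 min, against −0.54 at 240 min, where the air array read high. Its hypoxia minus air difference, which includes both 240 min arrays, was −0.30 ± 0.15. AT1G59740 (NPF4.3) read 6.66, 7.14 and 6.80 in hypoxia, against 6.94 and 6.92 in air, so that its groups overlapped. At 30 min AT1G59740 differed from 0 min air by −0.27 and at 60 min by 0.21.

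The other 3 read near the array median on all 5 arrays, where a decrease could hardly be seen. GTR1 (NPF2.10), which encodes a glucosinolate transporter, read 5.07, 4.84 and 5.02 in hypoxia, against 5.07 and 5.09 in air. AT1G27040 (NPF4.5) read 4.78, 4.81 and 4.54 in hypoxia, against 4.78 and 4.72 in air. AT2G37900 (NPF5.6) read 4.82, 4.74 and 4.74 in hypoxia, against 4.78 and 4.74 in air. These values were at the low end of the scale on every array and show no level that could be ordered.

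**Figure D2:**
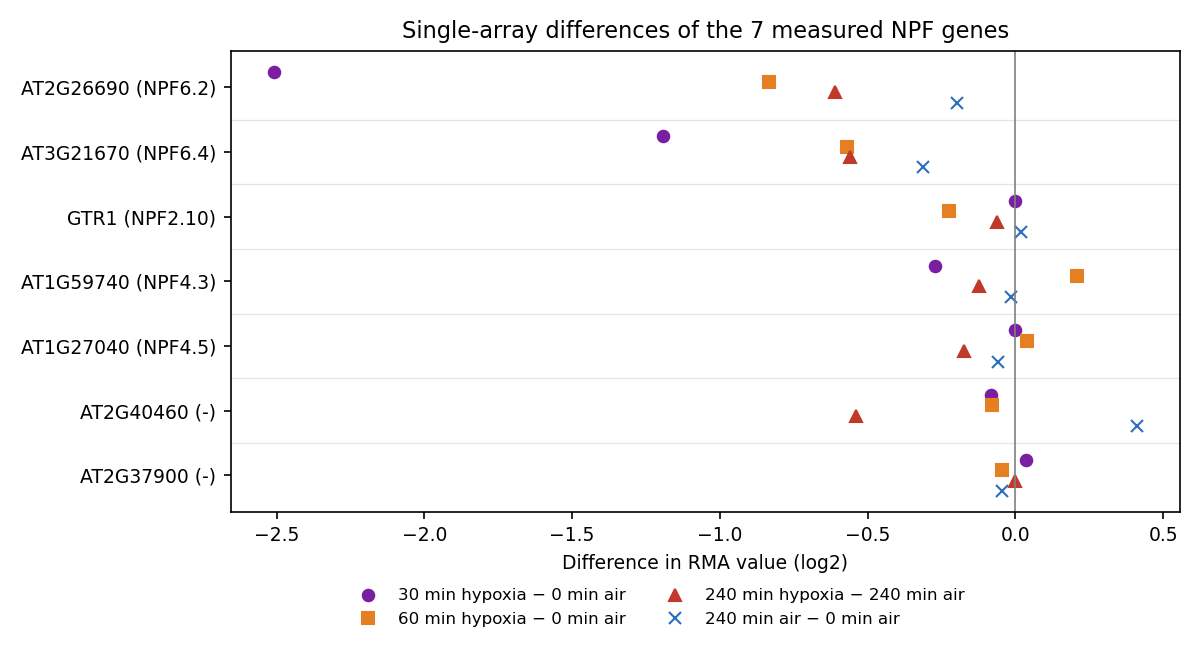
Differences in RMA value (log2, horizontal axis) between single arrays for the 7 measured NPF genes, with a marker for each of the 4 comparisons. AT2G26690 and AT3G21670 lie left of 0 in all 4, with 30 min of hypoxia furthest left, at −2.51 and −1.19, while the other 5 lie between −0.54 and 0.41. The contrast is not read as a result, because AT2G26690 and AT3G21670 were chosen for low values on these arrays. GTR1, AT1G27040 and AT2G37900 also read near the array median, where a decrease could hardly be seen.

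Other genes of nitrate use were listed, but none had a named probe set. The lists held 9 genes of the NRT2 and NRT3 families of high-affinity uptake, 29 genes of nitrate and ammonium assimilation such as those of nitrate reductase, and 24 genes of nitrate signalling and anion or proton transport. Each had 0 members measured, so nothing can be said here about nitrate uptake or reduction beyond the NPF genes. A further 54.1% of the probe sets tested have no gene name here, and other genes of these lists may be among them.

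**Figure D3:**
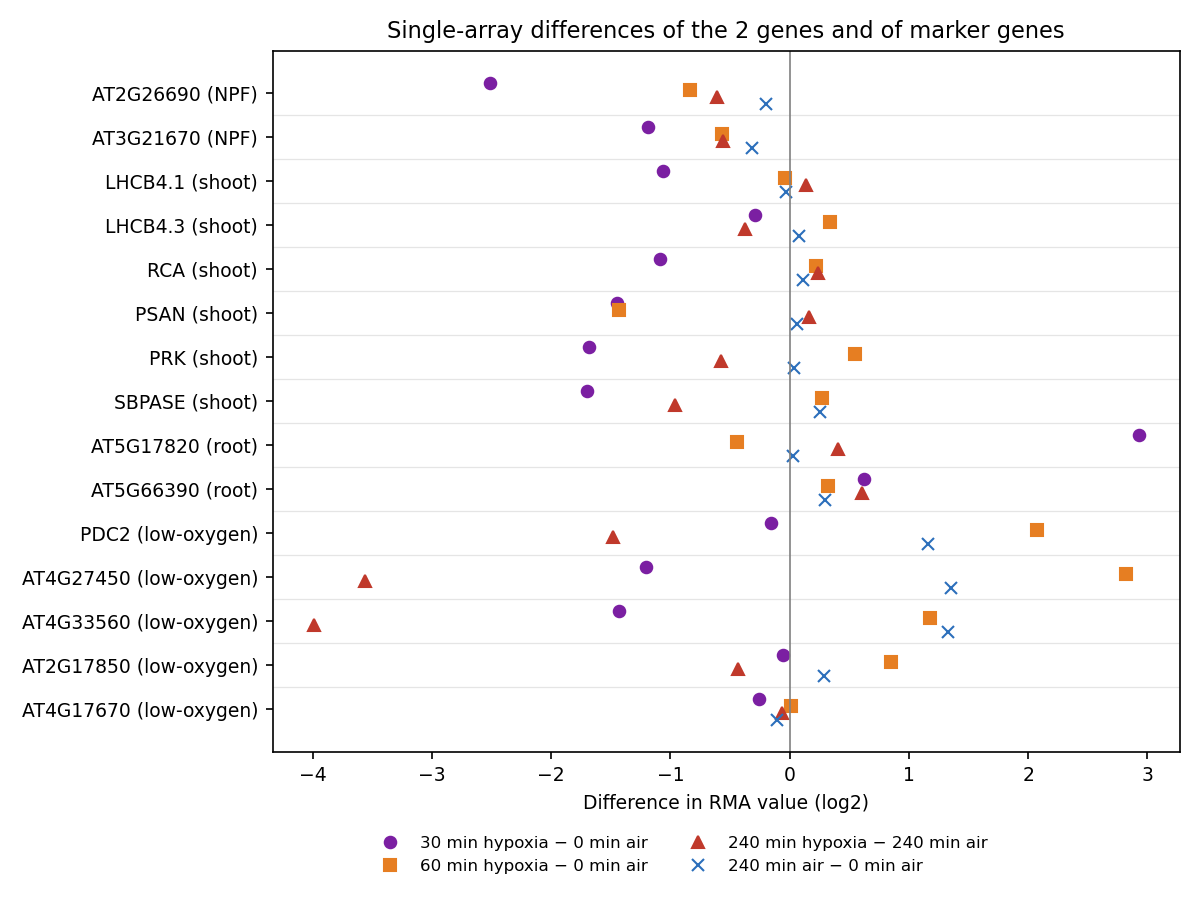
Differences in RMA value (log2, horizontal axis) between single arrays for the 2 transporter genes, 6 shoot photosynthesis genes, 2 root peroxidase genes and 5 low-oxygen genes. At 30 min the shoot genes lie left of 0 together with the transporter genes and the root genes right of it. At 60 min the transporter genes lie left of 0 and 4 of the 6 shoot genes right of it.

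The genes whose patterns were most like those of the 2 transporter genes were found by the root-mean-square difference between 5-array profiles, each centred on its own mean, over 2222 other named genes that reached the array median. For AT2G26690 the nearest were TRXF2, which encodes a chloroplast thioredoxin that activates Calvin cycle enzymes, at 0.39, AT2G05540 and SBPASE at 0.42, AT4G15545 at 0.42 and AT1G22690 at 0.43 (log2). All 5 had their lowest level on the 30 min array. TRXF2 and SBPASE departed from AT2G26690 at 60 min of hypoxia, where both read higher than in 0 min air and AT2G26690 read lower. At 240 min all of them read below 240 min air under the labels as given. TRXF2 read 7.61, 9.56 and 9.44 at 30, 60 and 240 min of hypoxia, against 9.29 and 9.61 in air. SBPASE read 7.13, 9.10 and 8.13 in hypoxia, against 8.83 and 9.09 in air.

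For AT3G21670 the nearest were AT4G38690 and AT5G07230, each at 0.13, AT2G36630 and AT2G45520, also at 0.13, and AT4G25370 at 0.15. AT2G36630 read 6.88, 7.51 and 6.95 at 30, 60 and 240 min of hypoxia, against 8.07 and 7.48 in air, and so overlapped with air at 60 min. AT4G25370 read 7.17, 8.04 and 7.65 in hypoxia, against 8.17 and 8.16 in air, without overlap. The 2 transporter genes differed from each other by 0.53, which placed AT3G21670 24th among the genes nearest to AT2G26690, and AT2G26690 1432nd among those nearest to AT3G21670. The profiles were not scaled, so this measure counts the size of change as well as its shape. A gene that hardly changes can thus rank nearer to AT3G21670 than AT2G26690 does. The ranks do not show that the 2 patterns differ in shape, and both were lowest at 30 min of hypoxia and highest in 0 min air. Likeness over 5 arrays is a description, and the genes named share the same arrays.

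**Figure D4:**
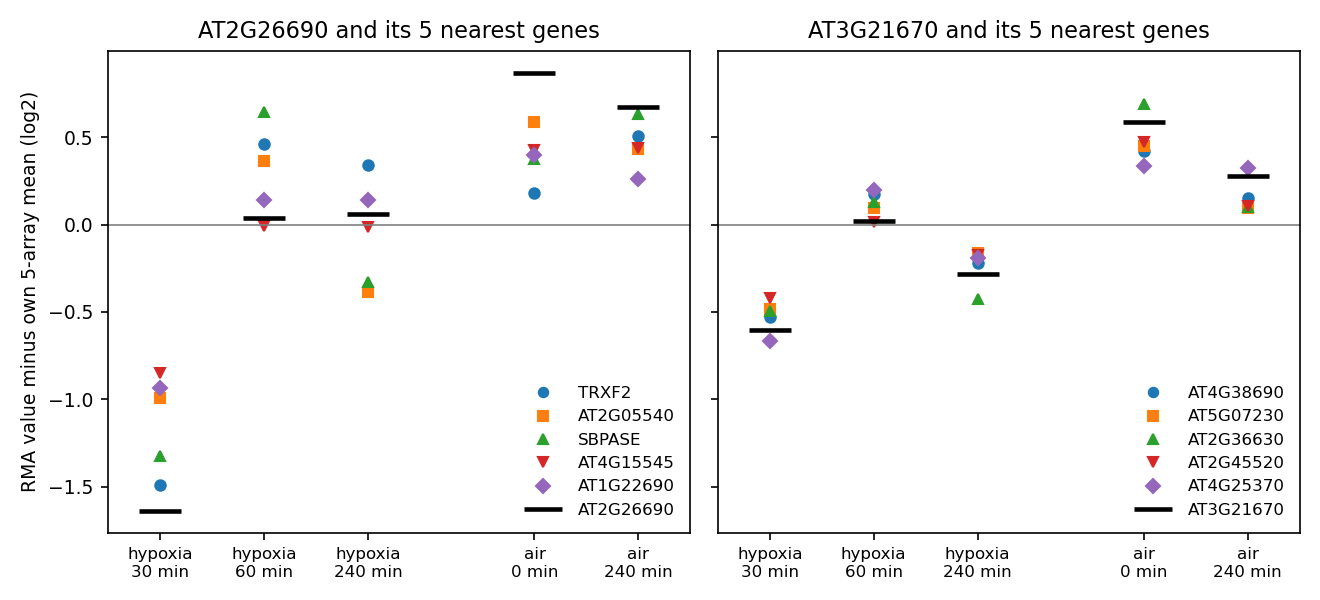
RMA value minus the gene's own mean over 5 arrays (log2, vertical axis) for AT2G26690 (left) and AT3G21670 (right), drawn as black bars, and for the 5 genes nearest to each, drawn as coloured points. Genes near AT2G26690 are lowest at 30 min of hypoxia but spread widely at 60 and 240 min. Those near AT3G21670 follow it more closely, within 0.15 (root-mean-square, log2).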

How the data were processed

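Biotin-labelled cRNA from 5 seedling samples was hybridised to an Affymetrix 1-colour array. The deposited table holds log2 values made by the authors with RMA, per the submitters' processing notes. No source used here gives the software, its version or a genome build, so no coordinates are printed. RMA normalizes the arrays together and compresses differences near its floor. Between 4.38% and 7.45% of probe sets had identical values on the arrays compared, so a difference of 0 can come from that summary. No probe-level signals were used, and 5 arrays limit the precision.

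Of 8297 probe sets, 50 controls were set apart and 8247 tested. A platform annotation table gave 3794 probe sets 1 gene and 70 several, and 3784 of those with 1 gene were matched by gene ID to RefSeq TAIR10.1 locus names. Each transporter gene has 1 probe set. That of AT2G26690 has the name ending _s_at, which Affymetrix gives to probe sets that can match more than one transcript.

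Hypoxia was compared with air with limma 3.58.1 in R 4.3.3 (lmFit, eBayes, Benjamini-Hochberg over all 8247), tested on simulated data. Single-array comparisons have no replicates and no p-value. Their counts take differences of 1 or more (log2) among probe sets at or above the median on 1 of the arrays. Where a gene had several probe sets, the one with the highest mean stood for it. Named genes are both transporter genes, every measured NPF gene, the 5 nearest patterns of each, and up to 3 genes of a marker list. The other members of the low-oxygen list appear only in a plot. Genes and lists were chosen with earlier results of these data known. Alternatives covered the variance prior, array weights, normalization, dim probe sets, the air array used, and each array left out.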

Additional observations from a re-analysis of the deposited data

Results flagged for a closer look

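Over the 30, 60 and 240 min arrays, the medians of 2 marker lists set beside the transporter genes each changed sign between times. The 2 lists did not oppose each other at any one time. The difference between times rests on single arrays and was not tested. The shoot photosynthesis genes had a median of −1.27 at 30 min and 0.25 at 60 min of hypoxia, each against 0 min air. The low-oxygen genes had a median of −0.25 at 30 min and 1.18 at 60 min, against 0 min air, and −1.48 at 240 min, against 240 min air. Under the labels as given, both transporter genes were below air at all 3 times, and both would be above it at 240 min were the 240 min arrays exchanged.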

How the results depend on the processing

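The hypoxia minus air differences of the 2 transporter genes kept their sign in all 16 recomputations, which their choice largely fixed. With 1 array left out, AT2G26690 ran from −1.57 to −0.72 and AT3G21670 from −0.88 to −0.56, both smallest in size without the 30 min array. The count of probe sets at an adjusted p under 0.05 was 0 in every setting. An unadjusted p under 0.05 was met by 161 probe sets, and by 243 with array weights, 82 without dim probe sets and 178 to 410 after dropping single arrays. Dropping single arrays kept the median of the other 5 NPF genes between −0.09 and −0.02. Of 20 single-array recomputations, 17 moved by less than the SD of the air arrays' differences over all probe sets, 0.22. The other 3, all of AT3G21670 against the air array not used above, gave −0.88 at 30 min, −0.26 at 60 min and −0.87 at 240 min. A stricter difference of 1.5 necessarily left fewer probe sets. At 30 min it left 120 higher and 65 lower. At 60 min these were 48 and 28. For 240 min they came to 283 and 62, and for the air arrays to 2 and 4. Leaving out both 240 min arrays was chosen after seeing the data. No paired analysis was possible because the groups share only the 240 min time and the labels carry no replicate numbers.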
